A study of Mus musculus with 6 samples.

Results

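The genes described here encode proteins that build ribosomes in the nucleolus. All probes whose gene symbol belonged to a list of 44 such genes were taken, 43 genes had a probe, and 37 of them had a probe bright enough to test, out of 12052 genes tested in all. Of the 43, 37 were found under their listed symbol and 6 under an older symbol alone, namely Nop56, Nop58, Nop2, Nop14, Nop16 and Utp20. Fbl was not analysed here, and the probes of Dkc1, Bysl, Wdr12, Rrs1, Nop16 and Utp20 were not well above background on any array. The RNA came from SmoWT-MB, a cell line from a mouse medulloblastoma without functional Ptch, the receptor that holds back Smoothened in hedgehog signalling. Cells were exposed for 6 h to JQ1, which displaces BET bromodomain proteins from acetylated chromatin, to GDC-0449 (vismodegib), which blocks Smoothened, or to DMSO, the solvent. All 3 groups are the same Ptch-deficient line, each with 2 arrays, and the labels give neither doses nor whether the 2 samples of a group were separate cultures. The p-values thus rest on how far the arrays of a group lie apart, which could be technical alone.

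Ribosomes are assembled in the nucleolus. RNA polymerase I transcribes a long precursor of the ribosomal RNAs there. Small nucleolar RNAs, bound to proteins as snoRNPs, guide the chemical modification of this precursor, and separate sets of assembly factors then cut, fold and export the small and the large subunit. Growing cells make many ribosomes, and in many cell types Myc proteins, which bind the DNA word CACGTG (the E-box), raise the transcription of these genes. The members were grouped by role into RNA polymerase I and the nucleolar scaffold (8 of 8 tested), snoRNP proteins (3 of 5 tested), small-subunit factors (13 of 15 tested) and large-subunit factors (13 of 16 tested).

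Because most members were lower together, the sequence around their transcription starts was searched for CACGTG, which reads the same on both strands. Of the 44 members, 38 had a RefSeq promoter window in GRCm38.p6, reaching from 250 bases before to 50 after the start, and 8 of these (21.1%) held the word. The share was 20.5% among 88 other ribosome biogenesis genes, 8.91% among protein-coding genes and 8.09% among all 27025 windows. The stretch around each match is printed 5′ to 3′ on the gene's strand, with the match in capitals and with the strand and coordinates in GRCm38.p6.
Pes1, chr11:3963965-3963994, plus strand: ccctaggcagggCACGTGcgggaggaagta
Ltv1, chr10:13193092-13193121, minus strand: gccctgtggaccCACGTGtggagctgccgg
Mybbp1a, chr11:72441355-72441376, plus strand: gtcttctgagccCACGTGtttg
Grwd1, chr7:45830740-45830767, minus strand: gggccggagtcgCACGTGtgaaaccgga
Nop2, chr6:125131811-125131840, plus strand: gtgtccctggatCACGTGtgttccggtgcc
Wdr43, chr17:71616220-71616249, plus strand: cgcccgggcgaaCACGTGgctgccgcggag
Imp4, chr1:34439696-34439725, plus strand: acggtcttagacCACGTGacatcccaaatc
Utp20, chr10:88826765-88826789, minus strand: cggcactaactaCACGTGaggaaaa
Counting the transcription start as base 1, the match began at base 3 in Pes1, 29 in Ltv1, 41 in Mybbp1a, 35 in Grwd1, 18 in Wdr43 and 38 in Utp20. It began 60 bases before the start in Nop2 and 121 before it in Imp4. A match describes these letters and is not a measured binding site. A second word, the palindromic CGCG element of some promoters, was searched in the same windows and was in 0 of 38 members' windows, against 0.755% of those of protein-coding genes.

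The arrays detected between 15125 and 15345 probes in JQ1 cells, 16154 and 16357 in GDC-0449 cells, and 16230 and 16466 in DMSO cells. The raw signal averaged 303 and 313 in JQ1 cells, 305 and 306 in GDC-0449 cells, and 408 and 344 in DMSO cells, and its part in the results was not tested. Levels below are log2 normalized intensities, which are quantile-normalized, so each change is relative to the other genes on the array. In such bulk samples fewer cells of a type and less RNA per cell cannot be told apart. Of 12 markers of granule neuron precursors and medulloblastoma, 7 were tested, among them Barhl1, Zic1 and Zic2, while others, among them Atoh1, Neurod1, Pax6 and Eomes, were not well above background. Their summed linear level was 7288 to 7535 in JQ1 cells, 9534 to 9538 in GDC-0449 cells and 6600 to 6622 in DMSO cells. The sum of 4 of 8 astrocyte markers was 2052 to 2139 in JQ1 cells, 4335 to 4484 in GDC-0449 cells and 4180 to 4902 in DMSO cells, with Gfap, Aqp4, Aldh1l1 and S100b not well above background. The sum of 4 of 9 oligodendrocyte markers was 199 to 202 in JQ1 cells, 496 to 497 in GDC-0449 cells and 586 to 640 in DMSO cells, with Mog, Mag, Olig1, Olig2 and Sox10 not above background. For fibroblasts (2 of 8 markers) the sum was 318 to 320 in JQ1 cells, 850 to 872 in GDC-0449 cells and 676 to 720 in DMSO cells, with all collagen genes listed, Dcn, Lum and Pdgfrb not above background. For microglia (1 of 10 markers, Csf1r) it was 39 to 45 in JQ1 cells, 31 to 42 in GDC-0449 cells and 31 to 40 in DMSO cells. These values are near the lowest level that the arrays detected. For endothelial cells (2 of 8) it was 117 to 118 in JQ1 cells, 72 to 73 in GDC-0449 cells and 68 to 75 in DMSO cells. Aif1, Cx3cr1, Tmem119, Pecam1 and Cdh5 were not above background. The part of these differences in the results was not tested.

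After JQ1, 29 of the 37 members fell, 1 rose and 7 did not pass the threshold (limma, Benjamini-Hochberg adjusted p under 0.05 over all genes). Members that fell made up 78.4%, against 30.0% of all genes, and the 1 member that rose, Bop1, made up 2.7%, against 28.4%. The list was chosen with earlier results of these data known. The shares given here and below are therefore descriptive and no independent test of the list. The median log2 change of the members was -0.47, against 0.00 over all genes, and 35 of the 37 had a lower mean in JQ1 cells. By size, 12 members fell at least 1.5-fold, against a background of 16.7% of genes, and 7 fell at least 2-fold, against 6.94%. Both JQ1 arrays lay below both DMSO arrays for 35 members, against 40.1% of all genes. The exceptions were Nop14, whose arrays overlapped, and Bop1, whose JQ1 arrays lay above.

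After GDC-0449, 28 of the 37 members fell, none rose and 9 did not pass (limma adjusted p, with 29 lower and 0 higher at an unadjusted p under 0.05). This was 75.7% of the members, against 9.60% of all genes that fell and 8.64% that rose. All 37 had a lower mean than in DMSO cells, the median log2 change was -0.44, against 0.01 over all genes, and 5 fell at least 1.5-fold, against 3.30% of genes. Both GDC-0449 arrays lay below both DMSO arrays for 35 members, against 29.6% of genes, the exceptions being Imp3 and Ddx10. Of the 28 calls, 18 passed under every alternative processing that kept all arrays. The number that fell dropped, among members and among all genes, in fits lacking a DMSO or GDC-0449 array. Such fits have no replicate in that group. In them 36 or 37 members kept a lower mean, and the members' median log2 change was -0.46 to -0.43. Both comparisons share the DMSO arrays, so the members' responses are not independent of each other.

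**Figure D1:**
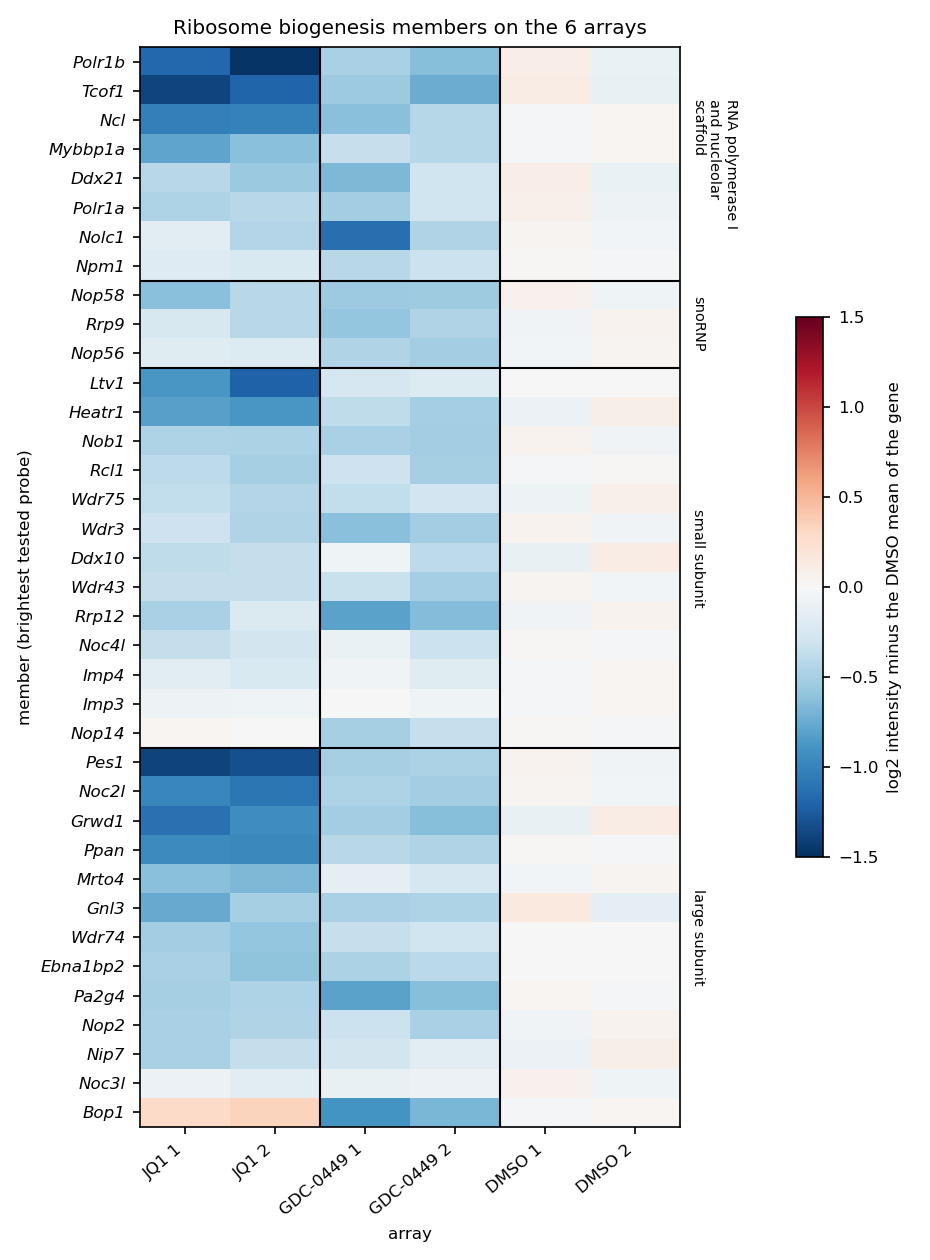
Heat map of the 37 tested members (rows, ordered by role) on the 6 arrays (columns). Colour is the log2 normalized intensity minus the DMSO mean of the same gene. Pes1, Polr1b and Tcof1 are lowest on the JQ1 arrays, and Bop1 is above the DMSO mean on both JQ1 arrays and below it on both GDC-0449 arrays.

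**Figure D2:**
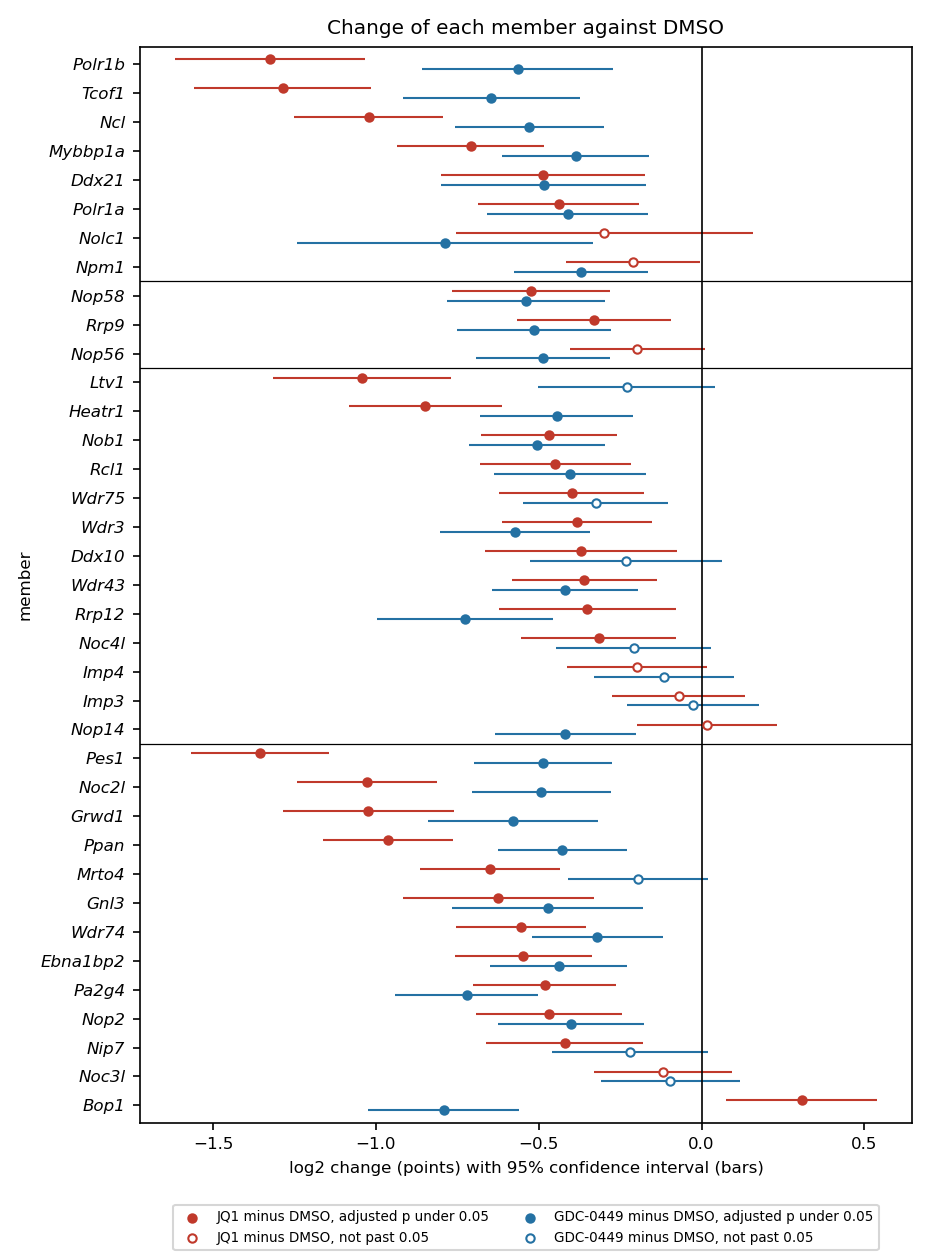
Log2 change of each tested member in both comparisons with DMSO, with 95% confidence intervals from the limma model, by role. All 37 points lie below 0 for GDC-0449 against DMSO and 35 of 37 for JQ1 against DMSO.

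All 8 members of the RNA polymerase I and scaffold group fell after GDC-0449 and 6 of 8 fell after JQ1, with median log2 changes of -0.51 after GDC-0449 and -0.60 after JQ1. The 8 calls after GDC-0449 came to 0 without the first DMSO array, 2 without the second, 2 without the first GDC-0449 array and 4 without the second. Polr1b, the second largest subunit of RNA polymerase I, had log2 intensities of 8.05 and 7.76 in JQ1 cells, 8.74 and 8.59 in GDC-0449 cells, and 9.33 and 9.12 in DMSO cells. The 3 groups did not overlap, with JQ1 lowest and DMSO highest. Polr1b was 2.50-fold lower after JQ1 (log2 change -1.32 ± 0.13 SE, adjusted p = 4.95e-05, limma) and 1.48-fold lower after GDC-0449 (-0.57 ± 0.13, adjusted p = 0.0199). Polr1a, the largest subunit, had 10.24 and 10.30 in JQ1 cells, 10.19 and 10.41 in GDC-0449 cells, and 10.78 and 10.63 in DMSO cells. Both treatments lay below DMSO and overlapped each other, with log2 changes of -0.44 after JQ1 (adjusted p = 0.00793, limma) and -0.41 after GDC-0449 (adjusted p = 0.0342). A further probe, which carries Polr1a's older name Rpo1-4 and was kept apart, fell by 0.50 after JQ1 and by 0.31 after GDC-0449 on the log2 scale.

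Tcof1 encodes treacle, a scaffold that brings RNA polymerase I and snoRNPs together and is mutated in Treacher Collins syndrome in humans. It had 7.71 and 7.89 in JQ1 cells, 8.54 and 8.35 in GDC-0449 cells, and 9.19 and 8.98 in DMSO cells. The groups were again ordered without overlap, at 2.44-fold below DMSO after JQ1 (log2 change -1.29 ± 0.12 SE, adjusted p = 3.97e-05, limma) and 1.56-fold below it after GDC-0449 (-0.65 ± 0.12, adjusted p = 0.00933). Ncl encodes nucleolin, an abundant RNA-binding protein of the nucleolus. It had 8.98 and 8.99 in JQ1 cells, 9.38 and 9.58 in GDC-0449 cells, and 9.98 and 10.03 in DMSO cells. The order was that of Tcof1, with log2 changes of -1.02 after JQ1 (adjusted p = 5.34e-05, limma) and -0.53 after GDC-0449 (adjusted p = 0.01). Mybbp1a, a Myb-binding nucleolar protein with a role in ribosomal RNA synthesis, had 10.58 and 10.75 in JQ1 cells, 11.03 and 10.95 in GDC-0449 cells, and 11.34 and 11.41 in DMSO cells. Its groups did not overlap either, at -0.71 after JQ1 (adjusted p = 0.000377, limma) and -0.39 after GDC-0449 (adjusted p = 0.0307).

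The other members of this group did not have that order. Ddx21, an RNA helicase, had 9.42 and 9.29 in JQ1 cells, 9.18 and 9.54 in GDC-0449 cells, and 9.94 and 9.74 in DMSO cells, and both treatments lay below DMSO. Its log2 change was -0.49 in both comparisons (limma adjusted p = 0.0148 for JQ1 and 0.0429 for GDC-0449). Npm1, nucleophosmin, a chaperone of the outer nucleolus, had 13.83 and 13.79 in JQ1 cells, 13.61 and 13.70 in GDC-0449 cells, and 14.05 and 14.00 in DMSO cells. It fell after GDC-0449 (-0.37, limma adjusted p = 0.0258) and had a log2 change of -0.21 after JQ1 that did not pass (adjusted p = 0.0748), although all 4 treated arrays lay below both DMSO arrays. Nolc1, a chaperone of snoRNPs, was dim, at 5.81 and 5.54 in JQ1 cells, 4.85 and 5.53 in GDC-0449 cells, and 6.02 and 5.94 in DMSO cells, and was not detected on 1 GDC-0449 array. It fell after GDC-0449 (-0.79 ± 0.20 SE, limma adjusted p = 0.0294) and did not pass after JQ1 (-0.30, adjusted p = 0.228).

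**Figure D3:**
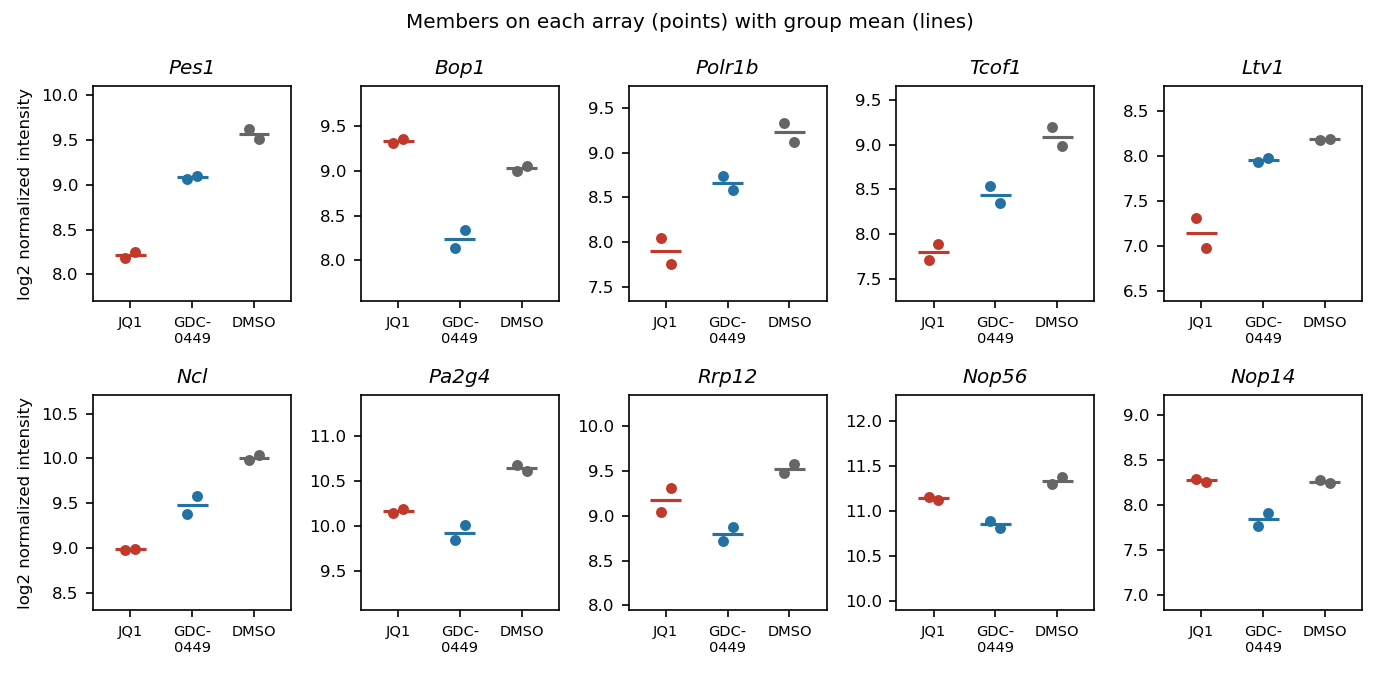
Log2 normalized intensity of 10 members on each array, 1 panel a gene, with JQ1, GDC-0449 and DMSO from left to right. Points are arrays and bars are group means. The vertical axes start at different levels but span the same range, and the 3 groups of Pes1, Polr1b, Tcof1 and Ncl are separate while Bop1 has its JQ1 arrays highest.

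Of the 3 snoRNP proteins tested, all 3 fell after GDC-0449 and 2 fell after JQ1. The 3 came to 1 without either DMSO array or without the first GDC-0449 array, and the 2 to 1 without the second JQ1 or the second DMSO array. Nop58, a core protein of the snoRNPs that guide ribosomal RNA methylation, had 11.00 and 11.22 in JQ1 cells, 11.09 and 11.10 in GDC-0449 cells, and 11.70 and 11.57 in DMSO cells. Treated arrays lay below DMSO and overlapped each other, with log2 changes of -0.52 after JQ1 (limma adjusted p = 0.00289) and -0.54 after GDC-0449 (adjusted p = 0.0119). Nop56, its partner in the same particles, had 11.16 and 11.13 in JQ1 cells, 10.89 and 10.81 in GDC-0449 cells, and 11.30 and 11.38 in DMSO cells. Here GDC-0449 was lowest (-0.49, limma adjusted p = 0.00946), and the JQ1 change of -0.20 did not pass (adjusted p = 0.0912). Rrp9, a protein of the U3 snoRNP, had 8.79 and 8.62 in JQ1 cells, 8.46 and 8.58 in GDC-0449 cells, and 8.99 and 9.08 in DMSO cells. It fell by 0.33 after JQ1 (limma adjusted p = 0.023) and by 0.51 after GDC-0449 (adjusted p = 0.0131) on the log2 scale.

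Among the 13 small-subunit factors tested, 10 fell after JQ1 and 7 after GDC-0449, with median log2 changes of -0.37 and -0.40. Without the first DMSO array 6 fell after JQ1 and 2 after GDC-0449, and the GDC-0449 count was 3 without the second DMSO array and 4 without the second GDC-0449 array. Ltv1, a factor that leaves the small subunit late in its maturation, had 7.31 and 6.98 in JQ1 cells, 7.93 and 7.98 in GDC-0449 cells, and 8.18 and 8.19 in DMSO cells. JQ1 was well below both other groups, with a 2.06-fold drop against DMSO (log2 change -1.04 ± 0.12 SE, limma adjusted p = 0.000125). After GDC-0449 the change was -0.23 and did not pass (95% interval -0.50 to 0.04, limma adjusted p = 0.213). Heatr1, the relative of yeast Utp10 needed early in small-subunit processing, had 10.05 and 9.99 in JQ1 cells, 10.49 and 10.36 in GDC-0449 cells, and 10.78 and 10.96 in DMSO cells. Its 3 groups were separate, at -0.85 after JQ1 (limma adjusted p = 0.000173) and -0.44 after GDC-0449 (adjusted p = 0.0214).

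Rrp12, which in yeast takes part in the export of subunits, had 9.04 and 9.31 in JQ1 cells, 8.72 and 8.88 in GDC-0449 cells, and 9.48 and 9.57 in DMSO cells. GDC-0449 was the lowest group, 1.65-fold below DMSO (log2 change -0.73 ± 0.12 SE, limma adjusted p = 0.00602), and JQ1 lay between (-0.35, adjusted p = 0.0317). Nob1, the nuclease that trims the end of the small-subunit RNA, had 9.43 and 9.41 in JQ1 cells, 9.39 and 9.37 in GDC-0449 cells, and 9.94 and 9.83 in DMSO cells. The treated groups lay within 0.1 of each other and both fell (limma adjusted p = 0.00232 for JQ1 and 0.00872 for GDC-0449). Wdr3, a WD-repeat protein of the early small-subunit particle, had 6.57 and 6.42 in JQ1 cells, 6.25 and 6.35 in GDC-0449 cells, and 6.93 and 6.82 in DMSO cells. It fell by 0.38 after JQ1 (limma adjusted p = 0.0109) and by 0.57 after GDC-0449 (adjusted p = 0.00801) on the log2 scale. Wdr43, another protein of that particle, fell by 0.36 after JQ1 (limma adjusted p = 0.0126) and by 0.42 after GDC-0449 (adjusted p = 0.0221).

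Rcl1, which in yeast has a role in cutting the precursor, had 9.91 and 9.81 in JQ1 cells, 10.01 and 9.81 in GDC-0449 cells, and 10.30 and 10.33 in DMSO cells. All treated arrays lay below DMSO, and Rcl1 fell by 0.45 after JQ1 (limma adjusted p = 0.0052) and by 0.40 after GDC-0449 (adjusted p = 0.0292). With the mean of its tested probes the change after GDC-0449 was -0.24 and did not pass (limma adjusted p = 0.101). It did not pass with no filter on dim probes either (limma adjusted p = 0.0622). A dimmer probe of Rcl1 had 9.86 and 9.77 in GDC-0449 cells, and 9.92 and 9.93 in DMSO cells. Wdr75, Noc4l and the helicase Ddx10 fell after JQ1, at log2 changes of -0.40, -0.32 and -0.37 (limma adjusted p = 0.00764, 0.029 and 0.0358). After GDC-0449 their changes were -0.33, -0.21 and -0.23 and did not pass (adjusted p = 0.0522, 0.199 and 0.245). Wdr75 had 10.52 and 10.45 in JQ1 cells, 10.52 and 10.60 in GDC-0449 cells, and 10.81 and 10.96 in DMSO cells. Noc4l had 8.93 and 9.01 in JQ1 cells, 9.19 and 8.97 in GDC-0449 cells, and 9.31 and 9.27 in DMSO cells. For both genes every treated array lay below both DMSO arrays. A dimmer probe of Wdr75 had 7.84 and 7.75 in GDC-0449 cells, and 8.30 and 8.22 in DMSO cells. For a dimmer probe of Noc4l these values were 8.85 and 8.75, and 9.10 and 9.16.

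Nop14, known from yeast as an early small-subunit factor, had 8.29 and 8.26 in JQ1 cells, 7.76 and 7.92 in GDC-0449 cells, and 8.28 and 8.24 in DMSO cells. JQ1 and DMSO arrays overlapped (log2 change 0.02, 95% interval -0.20 to 0.23, limma adjusted p = 0.89), and Nop14 fell by 0.42 after GDC-0449 (adjusted p = 0.0197). With each array scaled to its median over all probes, its change after JQ1 was -0.36 (limma adjusted p = 0.0315) and its difference between JQ1 and GDC-0449 was 0.29 (adjusted p = 0.0817). Imp3 and Imp4, which bind the U3 snoRNA, passed in no comparison. Imp3 had 11.51 and 11.53 in JQ1 cells, 11.59 and 11.53 in GDC-0449 cells, and 11.56 and 11.62 in DMSO cells, and its 95% interval was -0.27 to 0.13 after JQ1 and -0.23 to 0.18 after GDC-0449. Imp4 had a log2 change of -0.20 after JQ1 (limma adjusted p = 0.101) and of -0.12 after GDC-0449 (adjusted p = 0.43).

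Among the 13 large-subunit factors tested, 11 fell and 1 rose after JQ1, and 10 fell after GDC-0449, with median log2 changes of -0.55 and -0.44. The 10 came to 3 without the first DMSO array, 5 without the second, 5 without the first GDC-0449 array and 4 without the second. Pes1 and Bop1 belong, with Wdr12, to the PeBoW complex, which is needed to mature the RNAs of the large subunit, and they moved in opposite directions after JQ1. Pes1 had 8.18 and 8.25 in JQ1 cells, 9.07 and 9.10 in GDC-0449 cells, and 9.63 and 9.51 in DMSO cells. The 3 groups were far apart, and the 2.56-fold drop after JQ1 had the smallest p of any member (log2 change -1.36 ± 0.09 SE, limma adjusted p = 8.17e-06), while GDC-0449 gave -0.49 ± 0.09 (adjusted p = 0.0103). Bop1 had 9.31 and 9.36 in JQ1 cells, 8.13 and 8.34 in GDC-0449 cells, and 9.00 and 9.06 in DMSO cells. JQ1 was highest and GDC-0449 lowest, without overlap. Bop1 rose 1.24-fold after JQ1 (0.31 ± 0.10 SE, limma adjusted p = 0.0289) and fell 1.73-fold after GDC-0449 (-0.79 ± 0.10, adjusted p = 0.00219). The JQ1 call did not pass without any 1 of the 4 JQ1 and DMSO arrays (adjusted p between 0.0663 and 0.114), and with each array scaled to its median over all probes the change was -0.03 (adjusted p = 0.882).

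Noc2l, whose yeast relative travels with the large-subunit precursor, had 9.62 and 9.51 in JQ1 cells, 10.13 and 10.07 in GDC-0449 cells, and 10.64 and 10.55 in DMSO cells. The groups were separate, at 2.04-fold below DMSO after JQ1 (log2 change -1.03, limma adjusted p = 3.64e-05) and 1.41-fold after GDC-0449 (-0.49, adjusted p = 0.0104). Grwd1, a histone-binding protein that also acts in large-subunit assembly, had 7.59 and 7.78 in JQ1 cells, 8.18 and 8.07 in GDC-0449 cells, and 8.60 and 8.81 in DMSO cells. The order was the same, with -1.02 after JQ1 (limma adjusted p = 0.000112) and -0.58 after GDC-0449 (adjusted p = 0.0123). Ppan, the Peter Pan homologue needed for large-subunit processing, had 10.04 and 10.03 in JQ1 cells, 10.59 and 10.55 in GDC-0449 cells, and 11.01 and 10.98 in DMSO cells. Replicates lay within 0.1 of each other in each group, and Ppan fell 1.95-fold after JQ1 (-0.96, limma adjusted p = 3.45e-05) and 1.35-fold after GDC-0449 (-0.43, adjusted p = 0.0134).

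Pa2g4, a growth-regulated protein bound to ribosomes and their precursors, had 10.15 and 10.19 in JQ1 cells, 9.85 and 10.01 in GDC-0449 cells, and 10.68 and 10.62 in DMSO cells. GDC-0449 was lowest here, at -0.72 (limma adjusted p = 0.00265), against -0.48 after JQ1 (adjusted p = 0.00269). Gnl3 (nucleostemin, a GTPase of the nucleolus of dividing cells), Ebna1bp2, the RNA methyltransferase Nop2 and Wdr74 fell in both comparisons. Their log2 changes after JQ1 were -0.62, -0.55, -0.47 and -0.55 (limma adjusted p = 0.00314, 0.00109, 0.00347 and 0.000761), and after GDC-0449 they were -0.47, -0.44, -0.40 and -0.32 (adjusted p = 0.038, 0.0153, 0.0261 and 0.039). Gnl3 had 11.81 and 12.07 in JQ1 cells, 12.08 and 12.10 in GDC-0449 cells, and 12.71 and 12.42 in DMSO cells, so the treated arrays lay below DMSO in a group with a wide spread. Ebna1bp2 had 10.30 and 10.18 in JQ1 cells, 10.32 and 10.38 in GDC-0449 cells, and 10.80 and 10.78 in DMSO cells. Nop2 had 8.21 and 8.24 in JQ1 cells, 8.37 and 8.21 in GDC-0449 cells, and 8.64 and 8.74 in DMSO cells. For both genes every treated array lay below both DMSO arrays. Mrto4, a relative of the ribosomal stalk protein, had 9.53 and 9.47 in JQ1 cells, 10.02 and 9.89 in GDC-0449 cells, and 10.11 and 10.19 in DMSO cells. It fell by 0.65 after JQ1 (limma adjusted p = 0.000464), and -0.20 after GDC-0449 did not pass (adjusted p = 0.181). Nip7 fell by 0.42 after JQ1 (limma adjusted p = 0.00834), while its change of -0.22 after GDC-0449 and the changes of Noc3l (-0.12 after JQ1 and -0.10 after GDC-0449) did not pass.

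JQ1 and GDC-0449 have different targets, and the labels give no doses, so a direct comparison describes these exposures as they were made. Of the 37 members, 12 were lower and 4 higher after JQ1 than after GDC-0449, and 21 did not pass (limma, adjusted p under 0.05). These shares of 32.4% and 10.8% stand beside 28.0% and 26.5% of all genes, so the share that fell was near the background. The median log2 difference was -0.07, against 0.01 over all genes. For the 21 that did not pass, the 95% intervals ran from -0.45 to 0.46 on the log2 scale once the dim Nolc1 (upper bound 0.95) was set aside, so differences of that size could not be told from 0 with 2 arrays a group.

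The members lower with JQ1 than with GDC-0449 were Pes1, Ltv1, Polr1b, Tcof1, Noc2l, Ppan, Ncl, Mrto4, Grwd1, Heatr1, Mybbp1a and Wdr74. Heatr1, Mybbp1a and Wdr74 did not pass with each array scaled to its median over the tested probes. Their differences were then -0.24, -0.13 and -0.10 (limma adjusted p = 0.0786, 0.327 and 0.34). The differences were largest for Pes1 (-0.87 ± 0.09 SE, limma adjusted p = 9.25e-05), Ltv1 (-0.81 ± 0.12, adjusted p = 0.000542), Polr1b (-0.76 ± 0.13, adjusted p = 0.00116) and Tcof1 (-0.64 ± 0.12, adjusted p = 0.00198). Noc2l and Ppan followed at -0.54 each and Ncl at -0.49 (limma adjusted p = 0.00144, 0.000951 and 0.00318). The members higher with JQ1 were Bop1 (1.10 ± 0.10 SE, 2.14-fold, limma adjusted p = 4.32e-05), Nop14 (0.44, adjusted p = 0.00448), Rrp12 (0.38, adjusted p = 0.0257) and Nop56 (0.29, adjusted p = 0.0243). With each array scaled to its median over all probes, Nop14 (0.29) and Rrp12 (0.31) did not pass (limma adjusted p = 0.0817 and 0.0851). Pa2g4 (0.24) and Nolc1 (0.49) were higher on both JQ1 arrays than on both GDC-0449 arrays without passing (limma adjusted p = 0.0627 and 0.0663). By role, 4 of the 8 RNA polymerase I and scaffold members and 6 of the 13 large-subunit factors were lower with JQ1. Among snoRNP proteins 0 of 3 were lower and 1 was higher, and among small-subunit factors 2 of 13 were lower and 2 higher. Of all genes 28.0% were lower and 26.5% higher, and differences between the roles were not tested. Only 2 members were called higher without the second JQ1 array or without the first GDC-0449 array.

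Set side by side, 23 members (62.2%) fell in both comparisons with DMSO, as did 6.12% of all genes. Further, 6 (16.2%) fell after JQ1 and did not pass after GDC-0449, 4 (10.8%) fell after GDC-0449 and did not pass after JQ1, Bop1 rose after JQ1 and fell after GDC-0449, and 3 (8.11%) passed in neither. The same shares of all genes were 21.8% for a fall after JQ1 alone, 2.43% for a fall after GDC-0449 alone and 36.8% for neither. With no filter on dim probes, 15 of 43 members and 484 of all genes fell in both, beside 23 of 37 and 737 with the filter. Omitting a DMSO or GDC-0449 array, which leaves its group without a replicate, lowered the number that fell in both for the members and for all genes. Whether the members lost more of these calls than other genes was not tested. In those fits the members' median log2 change was -0.51 to -0.47 after JQ1 and -0.46 to -0.43 after GDC-0449. The 6, called on their brightest probes, were Ltv1, Mrto4, Ddx10, Nip7, Noc4l and Wdr75, of which Ltv1 and Mrto4 also differed between the treatments. The 4 were Nolc1, Npm1, Nop14 and Nop56, of which Nop14 and Nop56 differed between them. For the rest of these 10 genes a difference between the treatments was not shown. The 3 that passed in neither were Imp3, Imp4 and Noc3l.

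**Figure D4:**
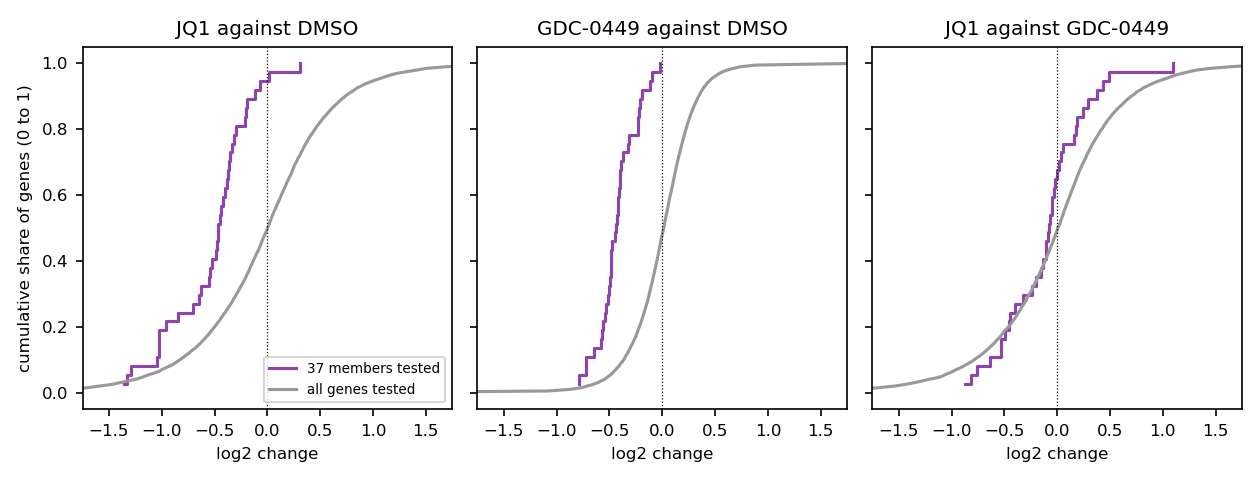
Cumulative share of genes (vertical axis, as a fraction) against log2 change (horizontal axis) for the 37 tested members and for all genes tested, 1 panel a comparison. The members' curve lies left of that of all genes over most of its length in both comparisons with DMSO and crosses it for JQ1 against GDC-0449, with members' medians of -0.47, -0.44 and -0.07.

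The 37 members were read by 60 tested probes, and 17 of them had more than 1. Taken singly, 58 of the 60 probes were lower after JQ1, with 46 that fell (28.8% of all probes fell), and all 60 were lower after GDC-0449, with 38 that fell (8.11%). In JQ1 against GDC-0449, 18 probes were lower past the threshold (26.5% of all probes) and 6 higher (25.6% of all probes). The probes of Ddx21 differed in their calls. Its dimmer probe had a log2 change of -0.06 after JQ1 (limma adjusted p = 0.684 over all probes) and of -0.65 after GDC-0449 (adjusted p = 0.00884). That probe was higher with JQ1 than with GDC-0449 (0.59, limma adjusted p = 0.00236), while the brighter probe had an interval of -0.32 to 0.31. A dimmer probe of Polr1a was also higher with JQ1 (0.37, limma adjusted p = 0.0124). The 4 probes of Mybbp1a ranged from -1.09 to -0.42 after JQ1, all past the threshold, and from -0.55 to -0.08 after GDC-0449, where 2 passed.

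Dimmer probes of other members gave smaller or larger changes than the brightest. Tcof1's second probe, which only 2 arrays detected, had -0.37 after JQ1 and -0.12 after GDC-0449, neither past the threshold. Nob1's second probe had -0.22 after JQ1 and -0.23 after GDC-0449, and neither passed. Ebna1bp2's second probe fell by 0.82 after JQ1 and was lower with JQ1 than with GDC-0449 (-0.56, limma adjusted p = 0.00111), a difference that its brightest probe did not show (-0.11, adjusted p = 0.35). The 3 probes of Gnl3 fell in both comparisons with DMSO, as did both probes of Heatr1 and of Grwd1. For Ncl both probes fell after JQ1 (-1.02 and -0.90), and after GDC-0449 the second had -0.32 and did not pass (limma adjusted p = 0.0511).

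**Figure D5:**
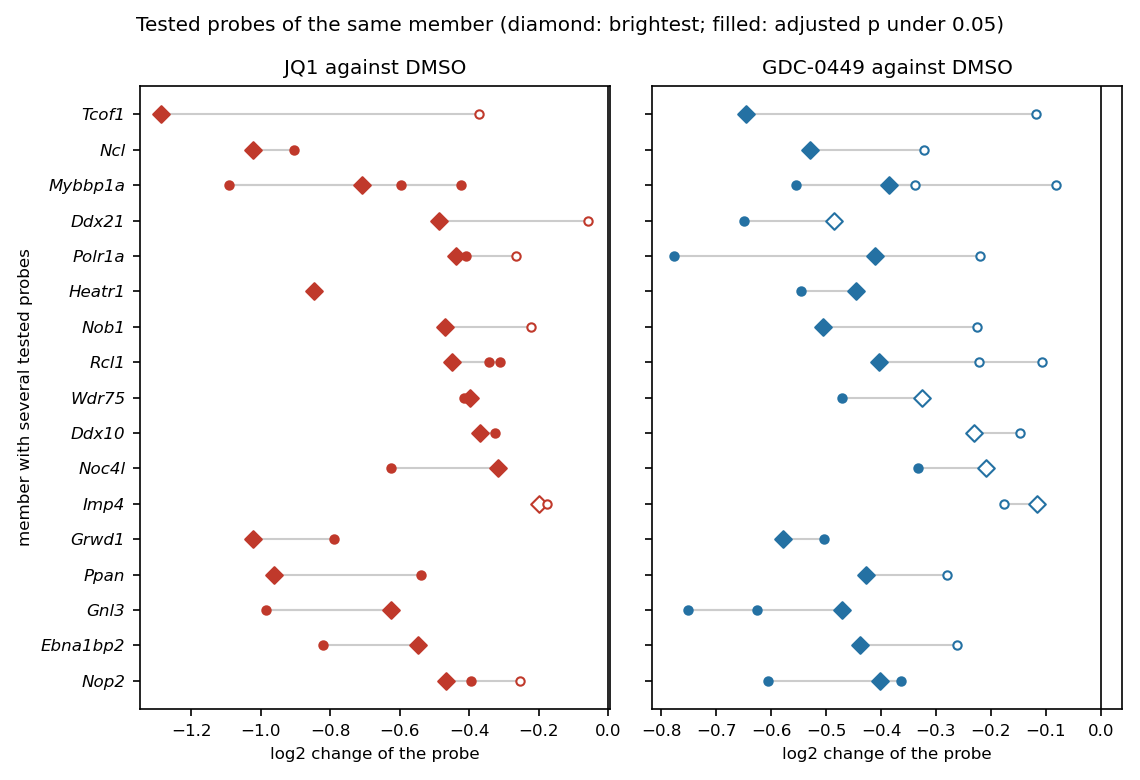
Log2 change of every tested probe of the 17 members with more than 1 tested probe, for JQ1 against DMSO and for GDC-0449 against DMSO. Diamonds mark the brightest probe of a gene and filled symbols mark changes past the threshold. The brightest and dimmer probes of Ddx21 and of Tcof1 lie apart in the JQ1 panel.

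Of other genes of ribosome assembly, 112 were listed and 89 tested. After JQ1, 41 (46.1%) fell and 4 rose, against 30.0% and 28.4% of all genes, with a median log2 change of -0.17. Gar1, a protein of the snoRNPs that guide pseudouridylation, fell by 1.17, Wdr18 by 0.94, Pwp2 by 0.88 and the RNA exosome subunit Exosc7 by 0.83. Those that rose were Tsr1 (0.82), Taf1c (0.63), Ddx54 (0.37) and Polr1c (0.27). After GDC-0449, 22 (24.7%) fell and 1 rose, against 9.60% and 8.64% of all genes, with a median of -0.23. Pno1 fell by 0.69, Rrp1b by 0.67, Wdr18 by 0.66 and Nol8 by 0.60, and Tsr1 rose by 0.39. In the direct comparison 17 (19.1%) were lower and 9 (10.1%) higher with JQ1, against 28.0% and 26.5% of all genes, with a median of 0.02. Exosc10 (-0.98), Gar1 (-0.87), Ddx52 (-0.62) and Exosc7 (-0.60) were lower, and Rrn3, the initiation factor of RNA polymerase I, was higher (0.81), as were Ddx54 (0.55), Nol9 (0.54) and Polr1c (0.48).

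Of the 8 members with CACGTG near the start, 7 were tested, namely Pes1, Ltv1, Mybbp1a, Grwd1, Nop2, Wdr43 and Imp4. Their median log2 change was -0.71 after JQ1 (6 fell) and -0.40 after GDC-0449 (5 fell). The 26 tested members whose window lacked the word had medians of -0.46 (21 fell) and -0.44 (19 fell). The median difference between JQ1 and GDC-0449 was -0.32 with the word and -0.06 without it, and no test was made of these groups. The Myc probes were detected on 0 and 1 of the 6 arrays and the Mycn probe on 0. The detection p-values of 1 Myc probe ran from 0.0021 to 0.047, against the limit of 0.01. A probe that was not detected does not show that its gene was silent. Mycl, a further Myc family gene, was detected on all 6, with 10.62 and 10.54 in JQ1 cells, 11.89 and 11.84 in GDC-0449 cells, and 10.98 and 10.95 in DMSO cells. It was highest with GDC-0449 and lowest with JQ1, at a log2 change of 0.90 after GDC-0449 (limma adjusted p = 0.000767) and of -0.38 after JQ1 (adjusted p = 0.00589). Max, the partner of Myc proteins, had 6.30 and 6.19 in JQ1 cells, 6.88 and 6.80 in GDC-0449 cells, and 6.75 and 6.83 in DMSO cells, so it was below both other groups after JQ1 (log2 change against DMSO -0.54, limma adjusted p = 0.00123).

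Several members also carry small nucleolar RNA genes within their own bounds, in the RefSeq gene table and without regard to strand. This held for 7 of 44 members (15.9%), against 1.70% of protein-coding genes. Nop56 spans 5 such genes, among them Snord57 and Snord110, Nop58 spans 4, among them Snord11 and Snord70, and Gnl3 (Snord19 and Snord69) and Wdr43 (Snord53 and Snord92) span 3 each. Ncl spans Snora75 and Snord82, Ppan spans 2 and Dkc1 spans 1. The 6 of these that were tested fell after GDC-0449, and Ncl, Nop58, Wdr43, Ppan and Gnl3 fell after JQ1. Of all 37 tested members 75.7% fell after GDC-0449 and 78.4% after JQ1, against 9.60% and 30.0% of all genes. Whether host genes differed from the other members was not tested. The small nucleolar RNAs themselves were not measured here.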

How the data were processed

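The table used gives, per the file headers, a linear intensity averaged over beads and a detection p-value for each of 45281 probes on each array. The submitters' processing notes name GenomeStudio 1.9.0, and RNA was extracted with Trizol and labelled with biotin per the labels' protocols. A deposited table of the authors' processed intensity values, 1 row a gene, served as an alternative.

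Here, neqc of limma 3.58.1 (R 4.3.3) corrected the background from the detection p-values, added an offset of 16 and applied quantile normalization. Testing took the 17026 probes that at least 2 of 6 arrays detected (p under 0.01), and each gene was represented by its brightest. Older symbols were updated through the GRCm38.p6 RefSeq table unless a probe already carried the current one. lmFit and eBayes were fitted to all 6 arrays (3 residual and 5.38 prior degrees of freedom), two-sided, with Benjamini-Hochberg adjustment over 12052 genes. Values on every array are given for the members with the smallest p per comparison and role, those that moved against the majority, and those whose probes disagreed. The array count limits the precision. Alternatives covered background, scaling, filter, probe choice, symbols, replicate block and single arrays left out. The members and gene lists were chosen with earlier results of these data known.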

Additional observations from a re-analysis of the deposited data

Results flagged for a closer look

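The response of Bop1 differed between the compounds. It had 9.31 and 9.36 in JQ1 cells and 8.13 and 8.34 in GDC-0449 cells (log2 normalized intensity), against 9.00 and 9.06 in DMSO cells. The difference of JQ1 minus GDC-0449 was 1.10 (limma adjusted p = 4.32e-05), and both JQ1 arrays lay above DMSO while both GDC-0449 arrays lay below it. The rise after JQ1 depended on the scaling. With each array scaled to its median over all probes, the change against DMSO was -0.026 (limma adjusted p = 0.882).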

How the results depend on the processing

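Of the members called, 20 of 30 for JQ1 against DMSO, 3 of 28 for GDC-0449 against DMSO (Rrp12, Bop1 and Pa2g4) and 9 of 16 for JQ1 against GDC-0449 passed under every alternative, and 25, 18 and 11 did so in those that kept all arrays. Leaving out 1 array at a time gave 23 to 29 members that fell and 0 to 1 that rose for JQ1, 6 to 26 that fell for GDC-0449, and 8 to 11 lower and 2 to 4 higher in the direct comparison. Over all genes it gave 408 to 1104 that fell and 336 to 978 that rose for GDC-0449. With each array scaled to its median over all probes, the medians of all genes shifted to -0.30 for JQ1, -0.21 for GDC-0449 and -0.07 for the direct comparison, and those of the members were -0.76, -0.73 and -0.07, or -0.46, -0.53 and 0.01 relative to all genes. Then 34, 35 and 10 members fell and 0, 0 and 3 rose, with 5702 genes falling and 1497 rising for JQ1 and 3232 and 356 for GDC-0449. The share of calls that were higher was 20.8%, 9.92% and 38.1%, beside 48.6%, 47.4% and 48.6% with quantile normalization. With this scaling Nop14 had -0.36 after JQ1 (adjusted p = 0.0315) and Bop1 -0.026 (adjusted p = 0.882). The cause was not tested. With scaling over the tested probes, added after seeing the data, the members' median was -0.39, -0.52 and 0.093, the last of opposite sign, and all genes were at 0.07, 0.00 and 0.09. Taking every probe gave 46 that fell for JQ1, since more features were counted, and the mean of a gene's probes put Ddx21 at 0.29 in the direct comparison (adjusted p = 0.0174). With symbols as deposited 2 members were higher in the direct comparison, since Nop14 and Nop56 had no listed symbol. With no filter on dim probes 734 genes fell and 640 rose for GDC-0449, and 20 of 43 members fell. In the RNA polymerase I and scaffold group 3 then fell. For JQ1, 25 of the 43 members fell and 1 rose, beside 3436 genes that fell and 3393 that rose. With the replicate number as a block 29, 25 and 11 members fell and 1, 0 and 4 rose. Same-numbered arrays' deviations correlated at 0.01, -0.02 and 0.08. With 2 arrays a group this cannot tell whether same-numbered samples shared a culture or a day. Probes near background, such as Nolc1, limit what 2 arrays a group can show.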
